A study of Rattus norvegicus with 22 samples.

Results

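The transcripts followed here were those of 9 lymphocyte marker genes, Ptprc, Cd3d, Cd3e, Cd3g, Cd4, Cd8a, Cd79a, Cd79b and Nkg7, in rat liver. They were found by gene name, ignoring case, among the non-control features of an Agilent rat oligonucleotide array, and 9 of 9 were present, on 10 of the 30367 probes. Ptprc had 2 probes, and the brighter of them was used as its main probe. The livers came from male Sprague–Dawley rats, young adults at the start, on 2 semi-synthetic diets, sampled after 3 or 14 months. CD 3 and BD 3 held 5 rats each, and CD 14 and BD 14 held 6 each. CD denotes the control diet, and BD the biologically active substances-enriched diet (BASE-diet), in which salmon fat took the place of lard and a linden flower extract, pumpkin puree and 2 probiotic bacterial strains were added. A diet comparison is thus one of the whole mixture, and a time comparison also one of age. On each of 22 two-colour arrays, liver RNA of 1 rat was labelled with Cy5 and a common reference of liver RNA from young healthy rats outside the experiment with Cy3, per the labels. The study's methods text also names a common reference, yet then gives Cy3 to control and Cy5 to BASE-diet rats. The labels were followed. No array had its dyes swapped.

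Lymphocytes are a minority of the cells of a liver. Ptprc encodes CD45, a phosphatase on the surface of nearly all leukocytes, macrophages included. Cd3d, Cd3e and Cd3g encode the CD3 chains that signal for the T cell receptor, and Cd4 and Cd8a encode the coreceptors of helper and cytotoxic T cells. Cd79a and Cd79b encode the signalling chains of the B cell receptor, and Nkg7 encodes a granule membrane protein of natural killer and cytotoxic T cells. In whole liver, fewer cells of a type and less RNA per cell cannot be told apart.

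The probes are 60 bases long, and those shown here are the ones on which the results turn. The log2 ratios of the 2 Ptprc probes and the Nkg7 probe ran alike across arrays, and the Cd3g, Cd3e and Cd79b probes shared high Cy5 signals on the same few arrays, while the Cd3d probe did not. Sequences are written 5′ to 3′ in the sense of the transcript, as the array files give them. For Ptprc and Cd3d only the last 30 bases are given. Capitals mark the polyadenylation signal AATAAA in Cd3d, and the letters TATGANGACAT in Cd79a and Cd79b, the longest stretch the 2 probes share with 1 mismatch (N), which lies in the part encoding the tyrosine signalling motif of both chains.
Ptprc, main probe: gtgggaaacaggactttgcaaatgggtttt
Ptprc, second probe: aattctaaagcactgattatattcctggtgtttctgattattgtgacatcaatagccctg
Nkg7: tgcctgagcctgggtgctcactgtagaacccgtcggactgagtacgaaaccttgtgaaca
Cd3g: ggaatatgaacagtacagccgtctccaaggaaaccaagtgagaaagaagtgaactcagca
Cd3e: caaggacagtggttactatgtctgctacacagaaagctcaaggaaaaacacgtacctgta
Cd3d: cttccccttgtgctcaaccAATAAAgatgt
Cd79a: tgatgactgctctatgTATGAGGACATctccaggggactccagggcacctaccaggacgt
Cd79b: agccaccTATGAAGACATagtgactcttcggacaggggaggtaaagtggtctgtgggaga

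TATGANGACAT was held by 30 of the 30367 probes on either strand, or 0.0988%, and AATAAA by 3327, or 10.96%. No pair of the 10 marker probes, 45 pairs in all, shared a run longer than 9 bases on either strand. In the rat build rn4 named in the array files, the 3 CD3 probes lay close together on chromosome 8, at chr8:47924376-47924435 for Cd3g, chr8:47936669-47936728 for Cd3d and chr8:47950313-47950372 for Cd3e. Cd3d was on the plus strand and the other two on the minus strand. The Ptprc probes were at chr13:51246523-51246582 and chr13:51274302-51274361 on the minus strand, and the Nkg7 probe at chr1:93813978-93814037 on the plus strand. The main Ptprc, Cd3d and Cd3g probes had 10 spots on every array and the other probes 2.

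Ptprc, Nkg7, Cd3d and Cd3g were well above background in Cy5 on all 22 arrays, as the scanner software called it for at least a share of 0.5 of a probe's spots. Of all probes, 44.8% reached that level. Cd4 and Cd8a were well above background on 21 arrays each, Cd79b on 18, Cd79a on 14 and Cd3e on 9. The second Ptprc probe reached 18 arrays, with 2 of 5 in CD 3, 4 of 5 in BD 3 and all 12 after 14 months. In the common reference the calls were fewer, and Cd3e, Cd79a and Cd79b were not well above background in Cy3 on any BD 14 array. Of the 10 probes, 8 passed the filter used for testing, which asked that 1 or more groups had the probe detected in Cy5 throughout, and they stood for 7 of the 9 genes. Cd3e and Cd79a did not pass. Their log2 ratios are therefore given as values. Those of Cd79b, Cd4, Cd8a and the second Ptprc probe rest on arrays of which some were below background. The Cd3g reference was well above background in Cy3 on 18 arrays, and not on CD 14 rat 4 or BD 14 rats 1, 3 and 6.

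**Figure D1:**
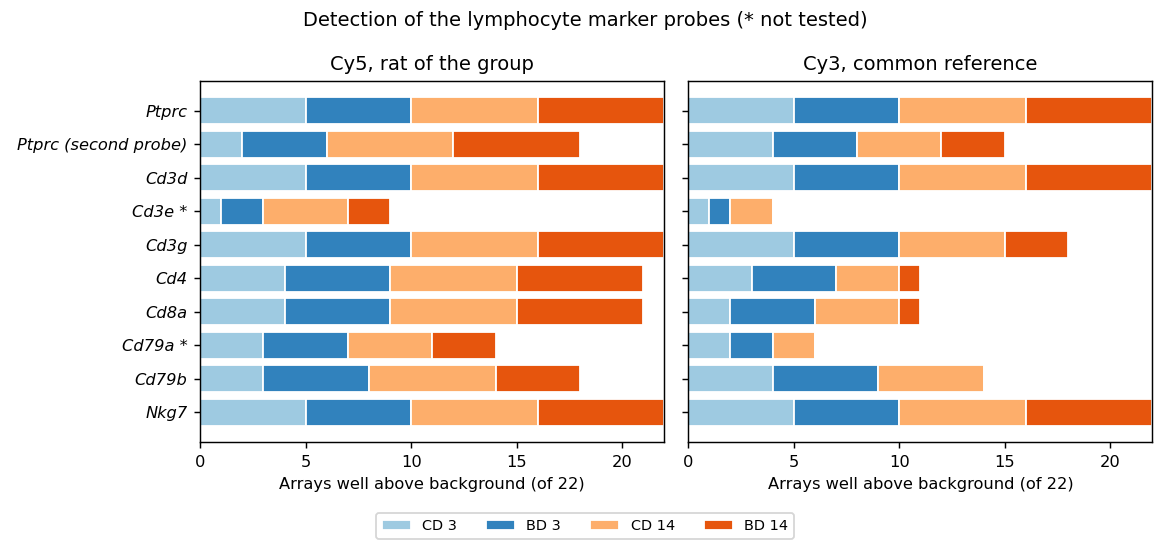
Number of arrays, out of 22, on which each marker probe was well above background in Cy5 (left, the rat of the group) and Cy3 (right, the common reference), stacked by group. In Cy5 the bars of Ptprc, Cd3d, Cd3g and Nkg7 reach 22, and Cd3e is shortest with 9.

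Several arrays stood apart before any group was compared. On 4 arrays, CD 3 rat 1, BD 3 rat 5, CD 14 rat 1 and CD 14 rat 3, 88.8 to 93.6% of spots were well above background in Cy5, against 52.4 to 77.0% on the other 18. In addition, over the 2936 probes of the processed table deposited beside the scanner files, the array labelled CD 3 rat 1 correlated with no column above 0.54, and the columns labelled CD 3 rats 1 to 4 matched the arrays labelled CD 3 rats 2 to 5 best. No marker probe was in that table. The 22 arrays were on 5 slides, called A to E here, each with a single scan date. BD 14 lay on slide C alone, with 2 CD 14 arrays, and 3 of 5 CD 3 arrays were alone on slide D. All 8 hepatocyte genes listed, among them Alb, were well above background on all 22 arrays, as the liver label implies. Beside several of the differences below, values with slide as a block or without these arrays are given too.

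Ptprc had the widest range of log2 ratios among the 4 genes detected on every array, Ptprc, Nkg7, Cd3d and Cd3g. The log2 ratio of rat to reference in CD 3 was -1.78, -1.73, -3.00, 0.77 and 0.31 in rats 1 to 5. In BD 3 it was -0.72, -2.04, -1.10, 0.55 and -0.32. The 3 lowest of these 10 rats were on slides D and B, and 7 of the 10 lay below 0. In CD 14 the lowest, median and highest log2 ratios were -0.37, 0.21 and 1.03, and in BD 14 they were -1.06, 0.20 and 0.66. All 4 groups overlapped. The median SD among the 10 spots of an array was 0.13, smaller than the SD among rats of any group, which ran from 0.60 in CD 14 to 1.58 in CD 3. The second probe, in another stretch of the transcript, gave log2 ratios of -2.68, -1.75, -4.57, -1.55 and 0.20 in CD 3 and had CD 3 rat 3 as its lowest array too. Rat 4 differed between the probes, at 0.77 on the main probe and -1.55 on the second, where it was not above background in either channel.

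Both channels contributed to these Ptprc ratios. On CD 3 rat 3 the Cy5 processed signal was 64.9 and the Cy3 signal 520.0, while on CD 3 rat 4 they were 173 and 101. The Cy3 signal came from the same reference pool on every array, yet after centring each array on its median its SD over the 22 arrays was 0.72 on the log2 scale for Ptprc. For the 12231 probes well above background in both channels throughout, the median of this SD was 0.44. For Cy5 the SD of Ptprc was 0.88, against a median of 0.53 over the same probes. Without such centring, the log2 signals of the channels correlated over 22 arrays at r = 0.16 for Ptprc, the lowest of the main probes. For Cd3d r was 0.93, the highest. The arrays share slides and the reference, and array medians ran from 44.2 to 165 in Cy5 and 50.6 to 159 in Cy3.

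Nkg7 was lowest in the same rat as Ptprc. Its log2 ratios were -1.69, -1.15, -2.06, -0.56 and -0.01 in CD 3, and -0.49, -0.90, -1.03, 0.25 and -0.35 in BD 3. In CD 14 the lowest, median and highest values were -0.73, -0.08 and 0.78, and in BD 14 -0.82, 0.08 and 0.55. Every CD 3 rat lay below 0, and in the other groups rats lay on both sides of it. CD 14 rat 6 had the highest Nkg7 Cy5 signal, 805, but its reference signal was also the highest, 610.3, and its log2 ratio of 0.40 was within the range of its group.

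**Figure D2:**
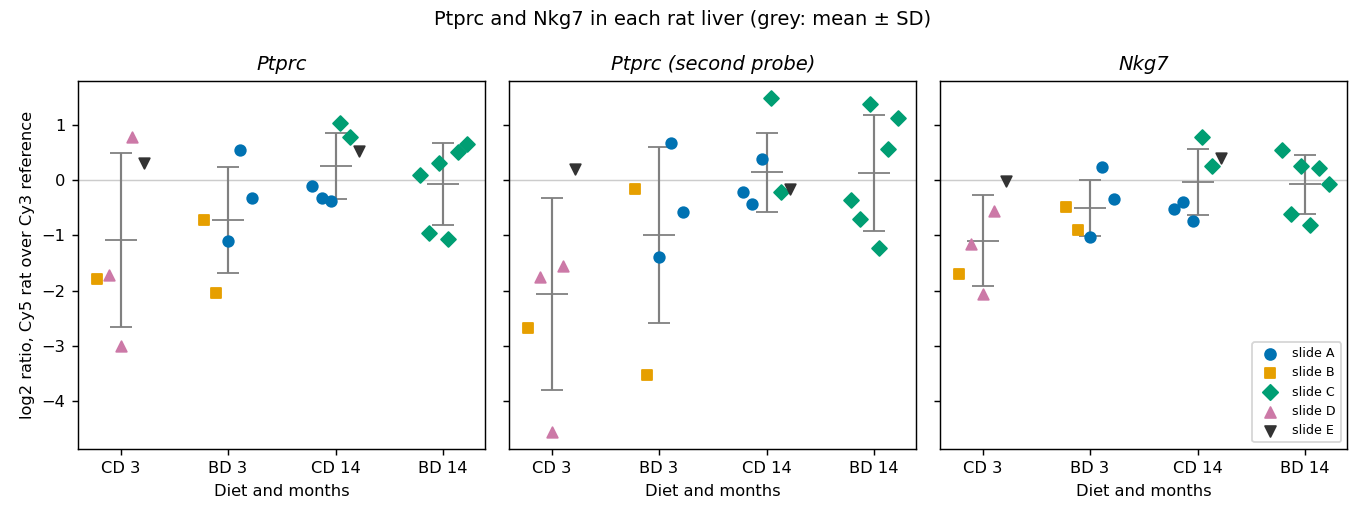
The log2 ratio of Cy5 (rat) to Cy3 (reference) for the 2 Ptprc probes and for Nkg7, 1 point per array, coloured by slide, with the group mean and SD in grey (n = 5, 5, 6 and 6). CD 3 rat 3 on slide D is lowest in each panel, at -3.00, -4.57 and -2.06, and the groups overlap.

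Among the main probes, in the fit without a block, the largest single differences were those of Ptprc and Nkg7 with time on the control diet. Between CD 14 and CD 3, 6 of the 7 tested genes were higher in CD 14, and the median log2 difference of the 7 was 0.43, against 0.03 over all 19425 probes tested. That median of the genes was 0.25 without CD 3 rat 1, 0.20 without CD 14 rat 4, 0.15 with normexp and loess and 0.16 with array weights. After Benjamini-Hochberg adjustment over all probes limma called 0 of the 7 genes, where the background was 0% of all probes. At an unadjusted p under 0.05, 2 of the 7 genes were higher, Ptprc and Nkg7, and 0 were lower, against 10.1% of all probes in either direction and 6.85% higher. That count was 1 when any single one of CD 3 rats 1, 2 and 3 or CD 14 rats 4 and 5 was left out, and 1 with array weights. Of all probes, 8.01 to 14.2% were below that threshold in these left-out fits, and 6.14% with array weights, in either direction. Ptprc had means of 0.25 ± 0.60 (SD, n = 6) and -1.09 ± 1.58 (SD, n = 5) and a log2 difference of 1.34 (SE 0.57, limma adjusted p = 0.426). Nkg7 had means of -0.04 ± 0.60 (SD, n = 6) and -1.09 ± 0.83 (SD, n = 5) and a difference of 1.06 (SE 0.36, limma adjusted p = 0.314). Neither passed the test. The second Ptprc probe differed by 2.21, a value given as a description, since it was detected on 2 of 5 CD 3 arrays and entered the test only through the groups in which it was detected throughout.

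The slide bore on this comparison. With slide as a block the difference was 0.31 for Ptprc, 0.37 for its second probe and 0.61 for Nkg7, and unadjusted p-values below 0.05 were found for 0 of the 7 genes, against 6.01% of all probes. On slide E, which alone held both groups, CD 14 rat 6 exceeded CD 3 rat 5 by 0.21 for Ptprc, 0.41 for Nkg7 and 2.10 for Cd3g and fell below it by 0.37 for the second Ptprc probe, with 1 array a group and no test. Without the 4 arrays that stood apart the differences were 1.41 for Ptprc and 1.201 for Nkg7, and the genes with an unadjusted p below 0.05 were then Nkg7 and Cd3g and no longer Ptprc, against 9.33% of all probes. Without CD 3 rat 1 alone the differences were 1.16 and 0.91. Without CD 3 rat 3 that of Ptprc was 0.86, more than 1.5 times smaller. In the Cy5 channel alone, after quantile normalization, the differences were 1.17 and 0.94, and 0 of 7 genes were below that unadjusted threshold, against 9.95% of all probes. With normexp background correction and loess they were 1.07 and 0.67, and that of the second Ptprc probe was 0.45.

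In the fit without a block the other tested markers differed less between CD 14 and CD 3. The log2 difference was 0.58 for Cd3g, 0.43 for Cd8a, 0.29 for Cd4, 0.08 for Cd3d and -0.08 for Cd79b, and limma adjusted p-values were 0.770 or more. Cd3d, a CD3 chain, had the narrowest interval, from -0.25 to 0.41 at 95% confidence. That interval holds no difference as large as the point estimates of Ptprc and Nkg7. The interval of Cd3g ran from -0.53 to 1.69 and that of Cd79b from -0.96 to 0.80, so that a rise of 1 on the log2 scale lay within that of Cd3g. Without the 4 arrays the difference of Cd3g was 1.24, and that of Cd79b turned to 0.29. For Cd3g it was 0.22 without CD 3 rat 3, 0.08 with slide as a block and 0.15 with normexp and loess. Without CD 3 rat 1 it was 0.10 for Cd8a and 0.04 for Cd4, and with slide as a block it was 0.77 for Cd8a, 0.68 for Cd4, 0.34 for Cd3d and -1.08 for Cd79b, each larger in size than the 0.31 of Ptprc in that fit.

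Between BD 14 and BD 3, limma called 0 of the 7 genes, against 0% of all probes, and at an unadjusted p under 0.05 it called 0 of 7 against 7.43%. Point estimates were above 0 for 5 genes, with a median of 0.43 over the genes and 0.07 over all probes. The median of the genes was 0.07 with normexp and loess, 0.08 with no detection filter, 0.28 without BD 14 rat 6 and -0.88 with slide as a block. Over the main probes the log2 differences ran from -0.05 for Cd4 to 0.65 for Ptprc (SE 0.57, 95% interval -0.53 to 1.83), and the second Ptprc probe stood at 1.13. Nkg7 differed by 0.43, Cd8a by 0.54, Cd3g by 0.53, Cd3d by 0.08 and Cd79b by -0.04. No slide held both groups, and with slide as a block, which then links them only through the control rats, Ptprc stood at -0.99 and Nkg7 at -0.83. The direction of the time difference in BASE-diet rats thus turned with the block, under which the unadjusted p was below 0.05 for 1 of the 7 genes, Cd4 at -0.93, against 4.64% of all probes.

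After 3 months of BASE-diet 0 of the 7 genes were called, against 0% of all probes, and 0 of 7 at an unadjusted p under 0.05 against 7.11%. Over the main probes the differences between BD 3 and CD 3 ran from -0.43 for Cd79b to 0.59 for Nkg7 (SE 0.38, 95% interval -0.20 to 1.38). Cd8a differed by 0.52, Ptprc by 0.36, Cd4 by 0.28, Cd3d by -0.09 and Cd3g by -0.34, and the second Ptprc probe by 1.07. The medians were 0.28 over the 7 genes and 0.03 over all probes, and that of the genes was 0.02 without CD 3 rat 1, -0.11 without CD 3 rat 3 and -0.09 where both channels had to be detected. Under the slide block Cd8a stood at 1.61 and Cd4 at 1.06, each with an unadjusted p below 0.05, which makes 2 of 7 genes against 11.05% of all probes. Without CD 3 rat 1 the difference of Cd79b was -0.10, that of Cd8a 0.20, that of Cd4 0.02 and that of Cd3g -0.04. Without CD 3 rat 3 that of Ptprc was -0.12, that of Nkg7 0.35, that of Cd3g -0.71 and that of Cd4 0.46, and without CD 3 rat 4 that of Ptprc was 0.83. With the 4 arrays that stood apart left out, Ptprc stood at 0.09, Cd8a at 0.23 and Cd4 at 0.11, with a median of 0.09 over the genes. On slide B, BD 3 rats 1 and 2 against CD 3 rat 1 gave 1.001 for Nkg7 and -1.97 for Cd79b, with no test.

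After 14 months 0 of the 7 genes were called between BD 14 and CD 14, against 0% of all probes, and 0 of 7 at an unadjusted p under 0.05 against 4.59%. In point estimate 6 of the 7 genes were lower in BD 14, with a median of -0.10 over the genes and 0.05 over all probes. The exception was Cd8a, with a difference of 0.63 (SE 0.41, 95% interval -0.22 to 1.48, limma adjusted p = 0.952). In Cd8a, BD 14 rats 1, 2 and 3 had log2 ratios of 1.41, 1.62 and 1.01, but their reference signals were not above background. On slide C, where all 6 BD 14 rats met CD 14 rats 4 and 5, the difference of Cd8a was -0.04. On that slide the differences were -0.98 for Ptprc, -0.59 for Nkg7, -1.02 for Cd3g and -1.12 for Cd79b, against -0.33, -0.04, -0.39 and -0.39 over all arrays. With the 4 arrays left out the differences were -0.57 for Ptprc, -0.33 for Nkg7, -0.74 for Cd3g and 0.38 for Cd8a, and the median over the genes was -0.33. In Cy5 alone Cd3d (-0.44), Cd3g (-1.28) and Cd79b (-1.25) had an unadjusted p under 0.05, 3 of 7 genes against 5.61% of all probes. Cd79b was detected on 4 of 6 BD 14 arrays and on all 6 of CD 14, so its value is a description. CD 14 rats 1 and 3 were among the 4 arrays that stood apart, and no BD 14 array was. In Cy5 these 2 rats read 475 and 218 for Cd3g and 103 and 164 for Cd79b. The interaction of diet and time, which tests whether the diet difference changed between 3 and 14 months, called 0 of 7 genes, against 0% of all probes, and 0 of 7 unadjusted against 4.79%. Over the main probes its estimates ran from -0.69 for Ptprc (SE 0.81) to 0.12 for Cd8a (SE 0.60), and the second Ptprc probe stood at -1.08. With slide as a block Nkg7 (-1.44), Cd8a (-1.65) and Cd4 (-1.61) had an unadjusted p under 0.05 in the interaction. This was 3 of 7 against 11.1% of all probes, with 0 called after adjustment. In Cy5 alone Cd3d (-0.74) did, 1 of 7 against 9.27% of all probes.

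**Figure D3:**
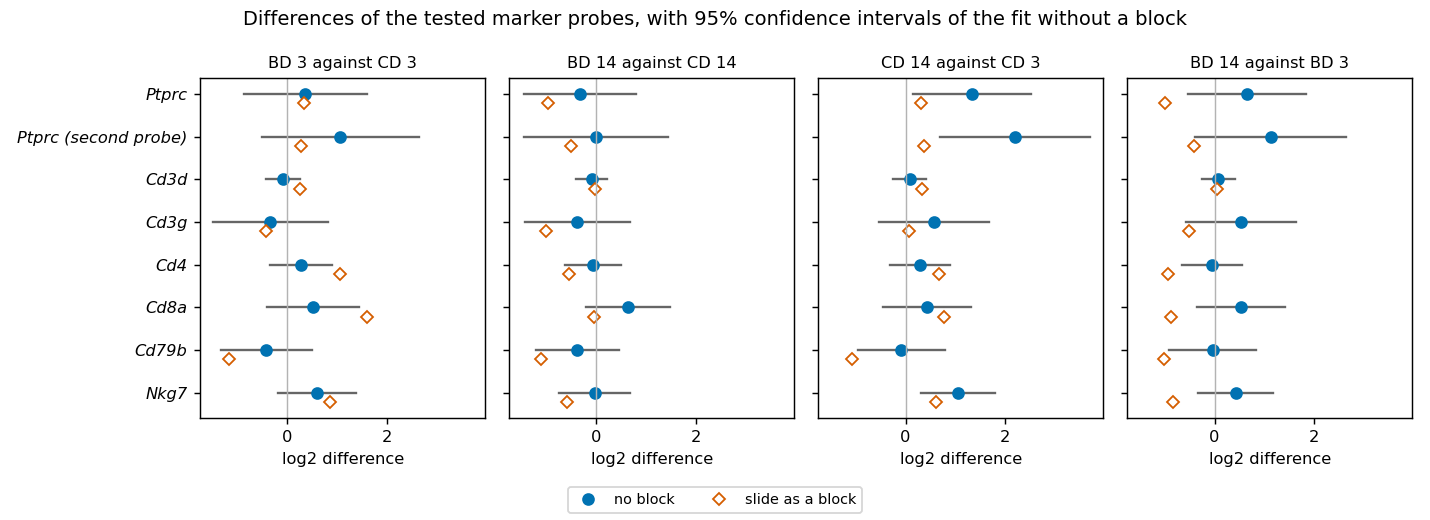
Log2 differences of the 8 tested marker probes in the 4 comparisons, with 95% confidence intervals (filled points, limma without a block) and the estimate with slide as a block (open diamonds). Of the main probes only Ptprc and Nkg7 between CD 14 and CD 3 have intervals clear of 0, and their diamonds stand at 0.31 and 0.61; the second Ptprc probe, shown as a description there, was detected on 2 of 5 CD 3 arrays.

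The CD3 chains did not vary alike. Cd3d had log2 ratios between -0.37 and 0.53 over the 22 arrays, whereas those of Cd3g, also with 10 spots an array, lay between -0.93 and 2.38. The log2 ratio of Cd3g was 1.76, -0.37, -0.93, 1.89 and 0.28 in CD 3 and -0.26, -0.11, -0.53, 0.61 and 1.21 in BD 3. Its lowest, median and highest values were -0.01, 1.07 and 2.38 in CD 14, and -0.08, 0.54 and 2.00 in BD 14. The value of 2.00 was that of BD 14 rat 6, where the reference was not well above background. High and low rats were found in every group. The ratios of Cd3d and Cd3g correlated at r = 0.39 over the 22 arrays and at 0.60 without the 4 that stood apart, and those of Cd3g and Ptprc at 0.66 and 0.81.

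The Cy5 signal of Cd3g, Cd3e and Cd79b was high on the 4 arrays that stood apart. These signals were not centred by array, and the arrays differed in brightness. The median Cy5 signal over all spots was 130 on CD 3 rat 1, 75.5 on BD 3 rat 5, 165 on CD 14 rat 1 and 138 on CD 14 rat 3. The median of this value over the 22 arrays was 78.5. For Cd79b these 4 arrays read 91.3 to 407, and each of the other 18 read less, from 8.80 to 78.8. For Cd3g they read 123 to 697, against a median of 70.8 on the other 18, of which 2 exceeded 123. For Cd3e they read 21.98 to 115, against a median of 6.52, and again 2 of the 18 exceeded the lowest of them. For Cd79a they read 19.7 to 32.6, against a median of 9.88, and 4 of the 18 exceeded the lowest of them. The reference signal was raised as well, at 53.7 to 335 for Cd3g on the 4 arrays against a median of 49.5 on the rest, and at 60.1 to 152 for Cd79b against 25.6. Ptprc did not follow, with 60.5 to 143 on the 4 arrays and a median of 183 on the others, and neither did Nkg7, with 39.98 to 94.5 against 136. On CD 3 rat 1 the Cd3g and Cd79b signals were the highest of the 22, 697 and 407, while those of Ptprc and Nkg7 were the lowest, 60.5 and 39.98. The parts of array brightness and of the raised share of detected spots in these values were not tested.

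In Cy5 the log2 signals of Cd3g and Cd3e correlated at r = 0.92 over the 22 arrays, Cd3e and Cd79b at 0.85, and Cd3g and Cd79b at 0.82. Without the 4 arrays these values were 0.79, 0.59 and 0.60, while that of Ptprc and Cd3g went from 0.17 to 0.86. These log2 signals were not centred by array, and how alike they were between markers turned on whether the 4 arrays were kept.

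**Figure D4:**
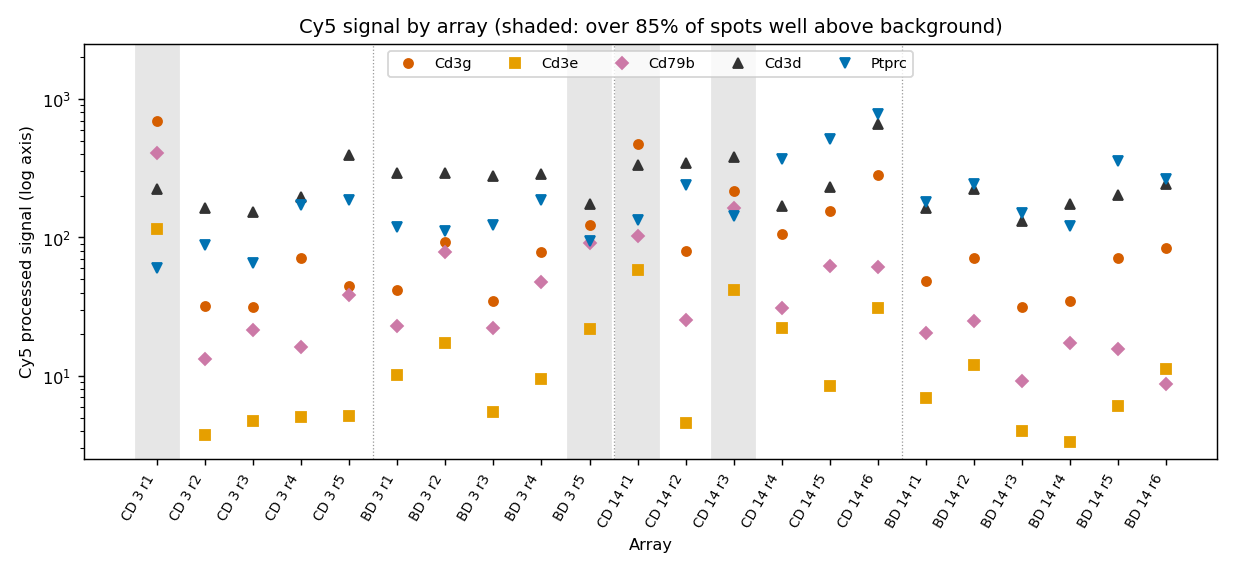
Cy5 processed signal, not centred by array, on a log axis for Cd3g, Cd3e, Cd79b, Cd3d and Ptprc on the 22 arrays in group order. The 4 arrays of over 85% detected spots are shaded. Each shaded array has a Cd79b signal of at least 91.3, above the 78.8 that is the highest elsewhere, while Ptprc reads 60.5 to 143 on the same arrays; signals are to be compared along an array series within a gene, not between genes.

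Of the B cell chains, Cd79a was above background on 14 arrays and Cd79b on 18. Cd79b had log2 ratios of 1.49, -0.18, -0.28, -0.34 and 0.07 in CD 3 and -0.91, -0.05, -1.14, 0.11 and 0.59 in BD 3. CD 3 rat 1 alone was over 1. In CD 14 the lowest, median and highest values were -1.22, 0.06 and 0.91, and in BD 14 -1.15, -0.58 and 0.74. Cd79a, which was not tested, ranged from -1.65 to 1.504, both in CD 14, and its ratios correlated with those of Cd79b at r = 0.42 over the 22 arrays, 0.70 on slide C and 0.19 on the other slides. Among the coreceptors, Cd4 ratios ranged from -1.43 to 0.45 and Cd8a ratios from -1.69 to 1.62, the lowest in each case being CD 3 rat 1. Cd3e, also untested, ranged from -1.13 to 1.46 and stood exactly at 0 on 3 arrays, the value that the scanner software gives where neither channel has a usable signal.

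Among the markers, the closest likeness of log2 ratios was between Ptprc and Nkg7, at r = 0.89 over the 22 arrays. It was 0.85 over the 8 arrays of slide C, 0.88 over the other 14 and 0.90 without the 4 arrays that stood apart. The 2 Ptprc probes correlated at 0.86, and the second of them with Nkg7 at 0.83. Nkg7 and Cd8a, both markers of cytotoxic cells, correlated at 0.62, and at 0.40 on slide C. Ratios of 1 array share its slide and its reference hybridization, so these values describe the arrays and carry no test.

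**Figure D5:**
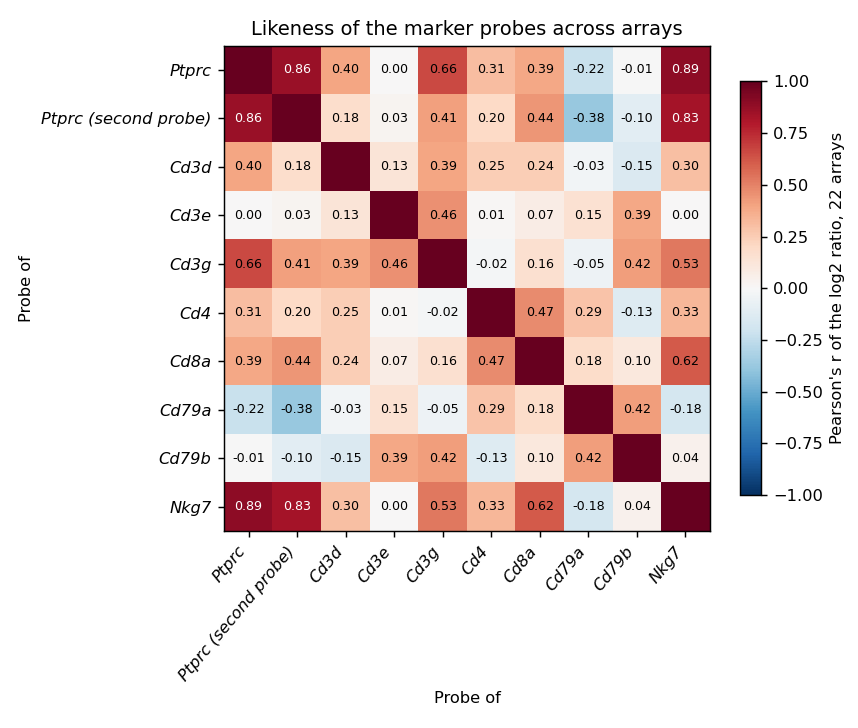
Pearson's r of the log2 ratio between marker probes over the 22 arrays. The 2 Ptprc probes and Nkg7 form 1 block with r of 0.83 to 0.89, and Cd79a and Cd79b have values from -0.38 to 0.42 with the rest.

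The genes most like each marker were sought among the 12231 probes well above background in both channels on every array. Ptprc was followed most closely by Vsir at r = 0.97, Kcnk13 at 0.97, Ccl6 at 0.97, Snx20 at 0.95 and Afap1l1 at 0.95. Vsir encodes the checkpoint protein VISTA of myeloid cells and T cells, and Ccl6 a chemokine. Nkg7 was followed by Gzma at 0.93, Ctss at 0.92, Fcna at 0.92, Clec4f at 0.91 and Cmtm7 at 0.91. Gzma encodes the granule protease granzyme A of cytotoxic lymphocytes, while Ctss encodes cathepsin S of antigen-presenting cells and Clec4f a lectin of Kupffer cells, the macrophages of the liver. Within the 8 arrays of slide C these 10 genes had r of 0.82 to 0.98 with their marker, and over the other 14 arrays 0.86 to 0.98. For Cd3d the highest value was 0.79, and of the 5 closest features only Bsdc1 at 0.76 carried a gene symbol. No B cell gene was followed, since Cd79b was above background on fewer than 20 arrays.

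Of 52 further lymphocyte genes listed, 48 were on the array and 30 were tested, and limma called 0 in each of the 4 comparisons and in the interaction. Between CD 14 and CD 3, 26 of the 30 were higher, as were 53.4% of all probes, and the medians were 0.52 and 0.03. At an unadjusted p under 0.05, 7 of the 30 were higher, against 6.85% of all probes, and 0 lower. Among these 7 were Gzmk, a granzyme, with 1.64 (SE 0.64), Gzma with 1.45 (SE 0.58) and Il7r, the interleukin 7 receptor, with 1.12, and the limma adjusted p-values of these 3 ran from 0.376 to 0.396. With slide as a block 15 of the 30 were higher, with a median of -0.01. Under that block 0 of the 30 had an unadjusted p under 0.05, against 6.01% of all probes. Without CD 3 rat 3 that count was 0 as well, against 8.01%, with a median of 0.32. Between BD 14 and BD 3, 3 were higher and 1 lower by the same measure, against 7.43% of all probes in either direction, with Gzmk at 1.64, Cd48 at 1.62, Ccr7 at 0.86 and Pax5, a B cell transcription factor, at -0.60. The median there was 0.26, and -0.52 with slide as a block. Between BD 14 and CD 14, where the background was 4.59%, only Ccr7, a lymph node homing receptor, was higher by it, at 0.78, and between BD 3 and CD 3 none was, against 7.11%. Ccr7 was well above background in Cy5 on 16 arrays and Gzmk on 18. Both entered the test only through groups in which they were detected throughout, so their values here are descriptions. In the interaction Ccr7 alone had an unadjusted p under 0.05, at 1.10, against 4.79% of all probes. With slide as a block these counts of the 30 were 2 higher and 3 lower between BD 14 and CD 14, against 7.80% of all probes, 2 higher between BD 3 and CD 3, against 11.05%, and 1 higher and 5 lower in the interaction, against 11.1%.

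Macrophage genes had values alike to those of Ptprc and Nkg7. Of 15 macrophage and Kupffer cell genes listed, 14 were on the array and tested, and 11 were well above background on all 22 arrays, Clec4f, Cd163 and Emr1 among them. None was called in any comparison. Between CD 14 and CD 3 all 14 were higher, with a median of 1.17, and 11 were so at an unadjusted p under 0.05, against 6.85% of all probes. At the ends of these 11 were Vsig4 with 1.71 and Emr1 with 1.40, both of macrophages, and Cd163, a haemoglobin scavenger receptor, with 1.14 and C1qb, a complement chain, with 0.96. Without CD 3 rat 3 the count of 11 was 7, against 8.01% of all probes in either direction, with a median of 0.81. In the fit with slide as a block 7 of the 14 were higher, with a median of 0.06. In that fit 0 had an unadjusted p under 0.05, against 6.01% of all probes. Between BD 3 and CD 3, 13 of the 14 were higher, with a median of 0.68, and 1, C1qc at 1.03, had an unadjusted p under 0.05, against 7.11% of all probes. Blocking on slide gave a median of 0.16, and leaving out CD 3 rat 3 one of 0.33. Between BD 14 and CD 14, 1 of the 14 was higher, with a median of -0.20, or -0.71 with slide as a block and -0.32 without the 4 arrays. Between BD 14 and BD 3 all 14 were, with a median of 0.29, or -0.60 with slide as a block. In the interaction 1 of the 14, C1qc at -1.15, had an unadjusted p under 0.05, against 4.79% of all probes.

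In CD 3 the mean log2 ratio of the macrophage genes was -1.58 ± 0.88 (SD) over 5 rats, and in BD 3 it was -0.999 ± 0.72 over 5. In CD 14 the mean was -0.45 ± 0.39 over 6 rats, and in BD 14 it was -0.63 ± 0.66 over 6. Summed over the 13 genes measured on every array, the Cy5 signal ran from 12525 to 35003 in CD 3, 16470 to 29840 in BD 3, 22352 to 115987 in CD 14 and 15939 to 50127 in BD 14. That mean correlated with Ptprc at r = 0.86 and with Nkg7 at 0.89 over the 22 arrays, as the mean of the 30 lymphocyte genes did at 0.91 and 0.90. Without the 4 arrays that stood apart the macrophage values were 0.87 and 0.95, and the lymphocyte values 0.92 and 0.92. Ptprc is itself expressed by macrophages. The part of macrophages in the Ptprc and Nkg7 values was not tested.

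The lists of other cell types were less alike to Ptprc and Nkg7. The mean of 6 red cell genes had r of -0.01 with Ptprc and -0.08 with Nkg7, and that of 8 hepatocyte genes -0.16 and 0.13. Neutrophil genes, of which 4 of 11 were tested, had 0.55 and 0.49, and the 7 endothelial genes tested had 0.73 and 0.76. Dendritic cell and platelet genes had values of 0.06 to 0.22, and bile duct and stellate cell genes of 0.23 to 0.32. Cd3d was closest to the endothelial genes, at 0.52, with 0.50 for neutrophil, 0.41 for lymphocyte and 0.09 for macrophage genes. Cd79b had 0.42 with neutrophil, 0.39 with dendritic cell, 0.26 with lymphocyte and 0.11 with macrophage genes. On slide C neutrophil genes had 0.01 with Ptprc and 0.04 with Nkg7, endothelial genes 0.61 and 0.81, and dendritic cell genes 0.46 and 0.68. Cd3d had 0.24 with endothelial and 0.52 with neutrophil genes on that slide. Of these lists 0 genes were called. At an unadjusted p under 0.05, Fgb, a fibrinogen chain of hepatocytes, at 0.78 and Lyve1, a receptor of sinusoidal endothelium, at 1.53 were higher between CD 14 and CD 3, where the background was 6.85% higher. Between BD 3 and CD 3, 3 of 6 red cell genes, Hbb-b1 at -1.49, Hbb at -1.19 and Slc4a1 at -0.96, and the dendritic cell gene Zbtb46 at -0.81 were lower by that measure and Pdgfrb, a stellate cell gene, higher at 0.63, against 7.11% of all probes. The count of red cell genes was 0 of 6 without the 4 arrays that stood apart, against 8.77% of all probes. Ccr7, whose values are given above, was also on the dendritic cell list. In the interaction Pdgfrb stood at -1.01.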

How the data were processed

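Liver RNA of 22 rats was hybridized with a common reference on Agilent two-colour arrays. Scanner images were processed by the authors with Agilent Feature Extraction (10.7.3.1 in the submitters' processing notes, 10.10.1.1 in the file headers), and the deposited files hold per spot the log10 ratio of Cy5 to Cy3 after background correction and dye normalization, the processed signal intensity of each channel, and flags. The deposited log2 table of selected probes, of unstated scale and centring, served only to match arrays. The build is rn4.

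The log10 ratios were converted to log2. Non-uniform and control features were dropped, the remaining spots of a probe averaged, and the 19425 probes that 1 or more groups had detected in Cy5 throughout were fitted with limma (3.58.1; R 4.3.3) on all 4 groups with Benjamini-Hochberg adjustment at 0.05, and not with the one-way ANOVA and Tukey test of the study's methods, which was an alternative. Processed signals are background-corrected intensities, and the number of arrays limits the precision. Tested on simulated data of 19425 probes, the fits recovered 27% of log2 changes of 1 between BD 3 and CD 3, 40% between CD 14 and CD 3, 43% between BD 14 and BD 3 and 44% between BD 14 and CD 14, and 84 to 91% of changes of 2; of the calls 9.76% were false for BD 3 against CD 3 and 2.17 to 3.73% for the others. The simulated noise had no slide or array effects, and the changed probes were drawn at random from those tested. These rates need not hold for single markers, whose SE between CD 14 and CD 3 was 0.57 for Ptprc and 0.53 for Cd3g. Each array is 1 rat. The markers and gene lists were chosen with earlier results of these data known. All marker probes were reported, and genes alike were the 5 of highest Pearson's r per role where a marker was detected on at least 20 arrays; from the lymphocyte and cell type lists, genes past the adjusted threshold or otherwise up to 2 at each end at an unadjusted p under 0.05 were named, and 1 gene so chosen is not reported here. Alternatives comprised normexp and loess, median centring, Cy5 alone, other filters, weights, blocks and left-out arrays; 5 were added after the data were seen.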

Additional observations from a re-analysis of the deposited data

Results flagged for a closer look

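In 36 sets of 5 or 6 rats, 9 genes in 4 groups, the gap of the highest or lowest log2 ratio to its neighbour was set against the range, and chance flags about 1 in 20 of such sets. In 3 sets a rat stood out. Cd3e was 1.46 on CD 3 rat 1, and Cd79b was 1.49 on the same array, which had the highest share of spots above background and matched no column of the deposited table. Cd8a was 0.94 on BD 3 rat 4, 0.96 above the next rat of its group. Each was well above background in both channels, but for Cd3e the other 4 rats of CD 3 were in neither, so that this gap sets 1 measured ratio against values at background. Their cause was not tested.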

How the results depend on the processing

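No marker tested was called under any of the 36 alternatives fitted with limma, of which the fit of only the groups compared has no interaction and the strict and both-channel filters left 4 and 5 genes to test, or in the 4 comparisons under the F test and Tukey test of the study's methods, and the lowest adjusted p of a marker probe was 0.063, for the second Ptprc probe between CD 14 and CD 3 without 1 array, a probe detected on 2 of 5 CD 3 arrays. Of the further lymphocyte genes 0 were called likewise. Detection on all 22 arrays held for 4 probes, also where all spots were asked for, and for 3 where both channels were. With so few calls this says little about stability, and the directions of small differences were not stable. The cause of the reversals below was not tested.

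With slide as a block the median difference of the markers between BD 14 and BD 3 was -0.88 and for the interaction -1.31, and signs turned for Ptprc (-0.99), its second probe (-0.42), Nkg7 (-0.83), Cd3g (-0.51) and Cd8a (-0.88) between BD 14 and BD 3, for Cd3d between BD 3 and CD 3 (0.25), for Cd8a between BD 14 and CD 14 (-0.043) and for Cd8a in the interaction (-1.65). In Cy5 alone they turned between BD 3 and CD 3 for Cd3d (0.30) and Cd4 (-0.014), between BD 14 and CD 14 for Ptprc (0.059), its second probe (0.53), Nkg7 (0.055) and Cd4 (0.20), between BD 14 and BD 3 for Cd3d (-0.41), Cd3g (-0.027) and Cd4 (0.29), and in the interaction for Cd79b (-1.01) and Cd4 (0.22). With array weights they turned for Cd3g between BD 3 and CD 3 (0.086) and for Nkg7 (0.16) and the second Ptprc probe (0.093) between BD 14 and CD 14, and with normexp and loess for Cd8a in the interaction (-0.12). Cd79b turned between CD 14 and CD 3 without the 4 arrays of many detected spots (0.29) and without the 2 of many non-uniform spots (0.28), and between BD 14 and BD 3 without the 4 (0.18). In the interaction it turned without the 4 (-0.11), without the 2 (-0.32) and with non-uniform spots kept (-0.025), and Cd3d turned without the 2 (0.033).

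The rat numbers did not pair the samples, since same-numbered rats of different groups correlated at -0.26 to 0.29 in their deviations over 21 pairs. With the replicate block the differences between CD 14 and CD 3 were 1.24 for Ptprc and 1.01 for Nkg7, only Cd79b turned (0.0025 between CD 14 and CD 3, 0.047 between BD 14 and BD 3), and no call changed.

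With each array left out in turn, the range crossed 0 for Ptprc between BD 3 and CD 3 (-0.12 to 0.83), for Nkg7 (-0.18 to 0.12), Cd3d (-0.14 to 0.0044), Cd4 (-0.17 to 0.06) and the second Ptprc probe (-0.26 to 0.26) between BD 14 and CD 14, for Cd3d (-0.018 to 0.16) and Cd79b (-0.25 to 0.25) between CD 14 and CD 3, for Cd79b (-0.25 to 0.18) and Cd4 (-0.16 to 0.081) between BD 14 and BD 3, and in the interaction for Cd8a (-0.14 to 0.44), Cd3d (-0.088 to 0.094), Cd3g (-0.38 to 0.32) and Cd79b (-0.29 to 0.26). Between CD 14 and CD 3 it ran from 0.86 to 1.80 for Ptprc and from 0.82 to 1.33 for Nkg7.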
